A study of Mus musculus with 32 samples.

Results

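Heavy polysome loading of mRNAs was measured in 3T3-tTA cells, the mouse NIH 3T3 fibroblast line that served as the parental control for an eIF4E-inducible line. The data are the 4 arrays, deposited as 8 samples out of 32, on which polysomal RNA of these cells was hybridized against their total RNA. All members of the group were chosen by their sample labels and no measured value entered the choice. The whole series holds 16 arrays in 4 conditions of 4 arrays each. The other conditions were polysomal RNA of 3T3-tTA-eIF4E cells and the change of total RNA upon induction in either line.

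3T3-tTA cells carry the tetracycline-controlled transactivator and no inducible eIF4E transgene. They were cultured without tetracycline for 5 h, the treatment that switches on eIF4E in the other line, so both the polysomal and the total RNA came from treated cells. Each array compared 1 polysomal with 1 total RNA sample, labelled with Cy3 and Cy5, on spotted cDNA clones printed as duplicate spots. The dyes were swapped between arrays. Arrays are named by the number of their first sample: polysomal RNA carried Cy3 on P9 and P11 and Cy5 on P13 and P15. Per the methods the 4 arrays stand for 2 RNA extractions, and neither the labels nor the methods name the arrays that share one. The precision is limited by this number. Nothing in the sources states that the extractions came from separate cultures, so a p-value here measures the spread between extractions, which may be technical.

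As background, an mRNA that initiates translation often carries many ribosomes and sediments deep into a sucrose gradient. Cycloheximide, added before lysis, freezes elongating ribosomes on the mRNA. The heaviest gradient fractions were pooled here, so the ratio of polysomal over total RNA ranks mRNAs by the share that sat in large polysomes. A short coding sequence holds few ribosomes and may be under-represented in such a pool even when it is efficiently translated. The ratios were centred within each array by the normalization. A log2 ratio of 0 therefore marks the typical clone and not an mRNA that is absent from polysomes, and every value below is relative to it.

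The 4 arrays were of unequal quality. Across 15247 clones the SD of the log2 ratio was 0.53 on P9, 0.81 on P11, 0.58 on P13 and 1.00 on P15. Duplicate spots correlated between 0.56 (P13) and 0.92 (P11). Arrays with the same dye orientation correlated at 0.50 (P9 with P11) and 0.33 (P13 with P15), whereas the 4 pairs of opposite orientation correlated between -0.42 (P11 with P15) and -0.08 (P9 with P15). These correlations are across clones, which are not independent replicates. The sign of each array was taken from the dyes in its labels. Means of 1 array of either orientation, in which a dye effect cancels, correlated at 0.38 (P9 and P13 with P11 and P15) or 0.03 (P9 and P15 with P11 and P13). Scanner values were analysed for P11 and P15. The 7200 clones with a foreground at least 1.5 times the background in both channels of both arrays are called clones above background. Among them the same 2 correlations were 0.53 and 0.39. A dye term was taken per clone from the difference between the Cy3 and the Cy5 arrays, and it also holds array noise. Its SD over all clones was 0.50, against 0.36 for the mean ratio of the 4 arrays. Among clones above background these SDs were 0.37 and 0.38. Readings of single arrays thus carry a dye term about as large as the mean ratio, or larger.

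The mean log2 ratio of the 4 arrays ranged from -2.47 to 1.49 over all clones, with a median of 0.03 and an SD of 0.36. Limma on the means of 2 extractions called 0 of 15247 clones higher and 0 lower in heavy polysomes (0% in either direction), where a call required 1.3-fold or more and an adjusted p below 0.1. The smallest adjusted p was 0.134. At an unadjusted p under 0.05, 760 clones were higher (4.98%) and 550 were lower (3.61%). In simulated data for these arrays the test called 1 of 50 clones changed by 1 on the log2 scale, 29 of 50 changed by 2 and 44 of 50 changed by 3. When limma was run on the clones above background alone, 42 of 7200 were called higher (0.583%) and 89 lower (1.24%), together 1.82%. Of these 131 clones 7 had a name, and each is described below. The called clones had mean log2 ratios from 0.83 to 1.49 and from -2.42 to -0.83. All 4 arrays lay on the same side of 0 for 40 of the 42 and for 89 of the 89. The count thus depends on which clones are tested. When limma drew its spread from all 4 conditions, 116 clones were higher (0.761%) and 137 were lower (0.899%). With the 8 spots taken as replicates, as duplicate spots are treated in the methods, limma called 976 (6.4%) and 1012 clones (6.64%). With the 2 Cy3 arrays alone it called 466 (3.06%) and 244 (1.6%), together 4.66%. All 4 arrays lay above 0 for 1177 clones (7.72%) and below 0 for 1148 (7.53%). Among clones above background these were 709 (9.85%) and 664 (9.22%).

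Gene names could be given to 573 clones of 550 genes. The row names of the deposited table were those of other spots, and a clone was named only where the value printed for it in the study's own lists was found in the table. This has a consequence for every count below. Of the named clones, 301 were listed as activated and 245 as repressed because polysomal loading differed between the lines, and these 4 arrays were part of that choice. Activated clones are drawn towards low parental ratios and repressed clones towards high ones. Their median log2 ratios were -0.20 and 0.45, against 0.03 for all clones. All 4 arrays lay above 0 for 30.6% of the repressed clones and for 8.64% of the activated ones, and below 0 for 2.45% and 21.3%. These shares, set by the choice, are those with which the counts of a gene list are to be read. Array P15 held much of this: the median of the repressed clones was 1.08 on P15 and 0.09 to 0.19 on the other 3 arrays, and that of the activated clones was -0.44 on P15 and -0.25 to 0.03 on the others. Only 27 clones were named from total RNA alone and were chosen without the polysomal arrays. Their choice is not free of the ratio either, since total RNA of induced cells is its denominator. Across clones the parental polysomal mean and the change of parental total RNA upon induction correlated at -0.19 (-0.26 above background).

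Ribosomal protein mRNAs were the largest family among the named clones, with 30 clones of 23 genes. They encode the structural proteins of the ribosome, are abundant, and have short coding sequences. Many begin with a C followed by a run of pyrimidines, the 5′ terminal oligopyrimidine tract, through which their translation is switched with growth conditions. To show what this start looks like in the genes measured, the 25 bases from 10 before to 15 after the annotated start site are given below from RefSeq on GRCm38.p6. Capitals mark a C within 5 bases of the start that is followed by at least 4 further pyrimidines, which was sought on the transcribed strand only. The first 5 genes hold such a tract in this window. Rpl13, whose polysomal ratio was among the highest of the family, does not.
Rpl38 (chr11:114668570-114668594, plus strand): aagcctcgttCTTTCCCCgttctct
Rpl35 (chr2:39005117-39005141, minus strand): ccgccCTTTCCTCTTTCTCTCgaac
Rpl7a (chr2:26910797-26910821, plus strand): ctcttCTTTCTTTCTCCagcagccg
Rps24 (chr14:24490668-24490692, plus strand): gctggggtCCTTCCTTgcgcgttga
Fau (chr19:6057937-6057961, plus strand): gcccccaCTTCTTCCTCTTTCTTga
Rpl13 (chr8:123102340-123102364, plus strand): tttcgcctgattttgattggcgttt

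Of the 23 ribosomal protein genes 20 had an entry, and 11 of these (55.0%) held such a tract at 1 or more annotated starts, against 21.2% of 27025 genes with an entry. The median log2 ratio was 0.39 for the 11 genes with the tract and 0.44 for the 9 without it. These medians were 0.01 and 0.39 in the large subunit and 0.41 and 0.44 in the small subunit. An annotated start can lie some bases from the one used in these cells, and no match says only that these letters are not in this window. The study states that the tract occurs in all mammalian ribosomal protein mRNAs. The split is thus one of annotated starts and need not be one of mRNAs with and without the tract.

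The small-subunit clones lay above 0 on average in 9 of 9 cases, with means from 0.22 to 0.57 and a median of 0.42. The medians of the single arrays were 0.58 on P9, 0.74 on P11, 0.28 on P13 and 0.22 on P15 (SD 0.25 over the 4 arrays). For 5 of the 9 clones all 4 arrays lay above 0 and for 0 of them below, against 7.72% and 7.53% of all clones. All 9 were listed as activated, a choice that favours low parental values. The 21 large-subunit clones were more spread, with means from -0.60 to 0.87 and a median of 0.20. The single arrays gave medians of 0.49, 0.15, 0.32 and -0.02 in the order P9, P11, P13 and P15 (SD 0.22). The list median was 0.10 in the fit without P9. Such fits without 1 array weigh the remaining arrays unequally, as described with the processing. Of the large-subunit clones 8 (38.1%) lay above 0 on all 4 arrays and 1 (4.76%) lay below. Of the 30 clones 29 were listed as activated and 1, Rpl3, as repressed. The remaining 272 activated clones had a median of -0.26, with 13 above (4.78%) and 63 below 0 (23.2%) on all 4 arrays.

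Rpl38, a protein of the large subunit, had 2 clones that disagreed. Clone H3122F02 read 0.98 on P9, 0.98 on P11, 0.59 on P13 and 0.93 on P15, a mean of 0.87 (SD 0.19), while clone H3141B12 read -0.02, 0.02, 0.31 and -0.17 with a mean of 0.04 (SD 0.20). The first was high on all 4 arrays and the second was near the typical clone on 3 of them. The adjusted p of limma for H3122F02 was 0.358 over all clones and 0.093 over the clones above background, where it was the only ribosomal protein clone called. Rpl13 had log2 ratios of 1.14, 1.01, 0.50 and 0.63 in the same order of arrays and a mean of 0.82 (SD 0.30), with an adjusted p of 0.364 and, over clones above background, of 0.102. Rpl35 read 0.72, 1.12, 0.74 and 0.23 with a mean of 0.70 (SD 0.36). Both genes lay above 0 on all arrays. Rpl34 read 1.22 on P9 and 1.22 on P11 but 0.01 on P13 and 0.00 on P15, so that its mean of 0.61 came from 1 dye orientation. Rpl7a was the only ribosomal protein below 0 on all 4 arrays, at -0.14, -0.95, -0.35 and -0.95 (mean -0.60, SD 0.42).

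In the small subunit Rps26 clone H3035A02 read 0.46, 0.45, 0.72 and 0.65 with a mean of 0.57 (SD 0.14), the least spread over arrays among these clones. Its second clone H3120B03 had a mean of 0.22. The accession given for both Rps26 clones belongs to another gene, Ikzf4, in RefSeq, and the name rests on the study's symbol. The 2 clones of Rps24 read 0.82, 0.74, 0.28 and 0.06 (H3145D11) and 0.69, 0.49, 0.27 and 0.22 (H3145D12), with means of 0.48 and 0.42. They differed from each other by 0.06, less than the arrays did. Rps3a1 read 0.35, 0.77, 0.28 and 0.45 (mean 0.46, SD 0.22). Rps13 was above 0 on 3 arrays, from 0.58 to 1.12, and at -0.69 on P15. Transcripts of ribosomal protein pseudogenes can bind to these cDNA spots and were not told apart from the genes.

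**Figure D1:**
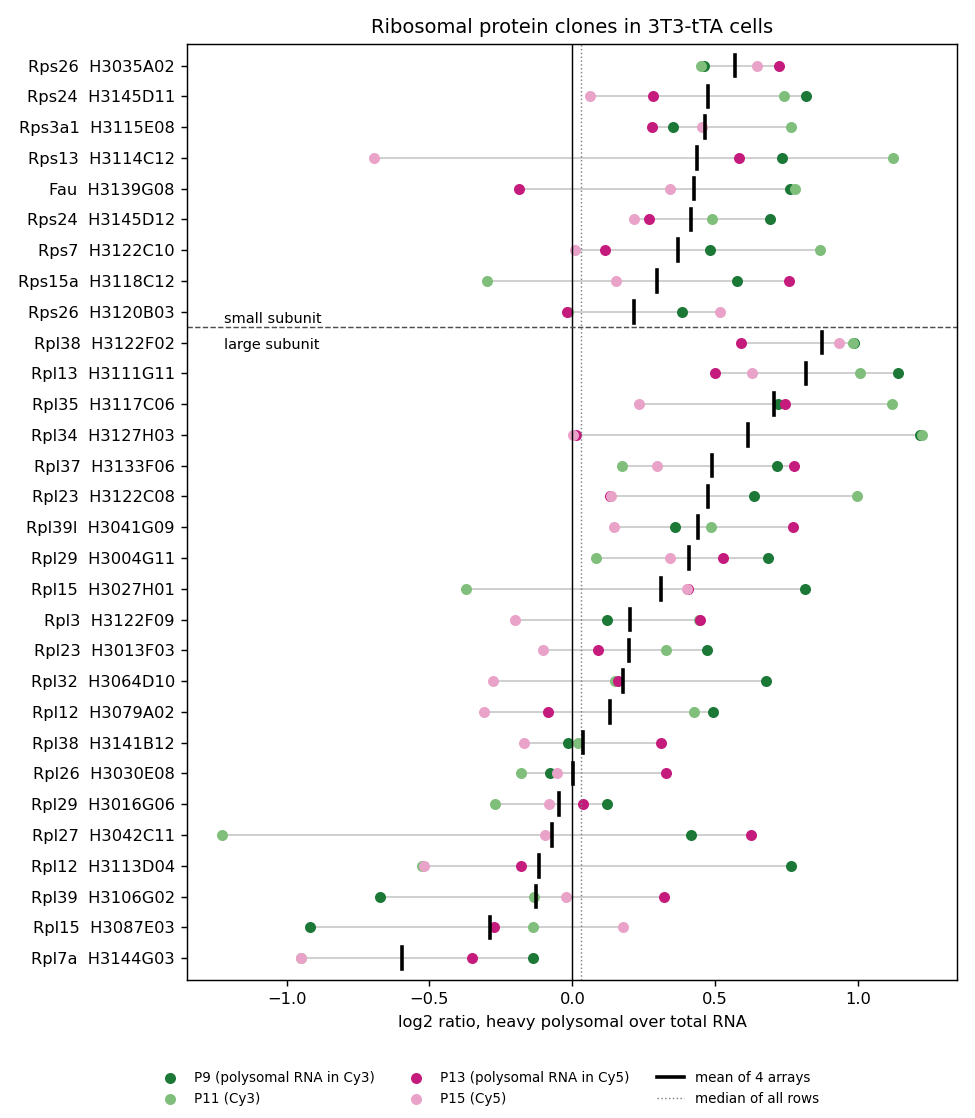
Log2 ratio of heavy polysomal over total RNA (x axis) for 30 ribosomal protein clones (y axis, symbol and clone) in 3T3-tTA cells. Points are the 4 arrays, coloured by array and dye, black bars are their means, and the dotted line is the median of all 15247 clones (0.03). All 9 small-subunit means and 15 of 21 large-subunit means lie above 0, and Rpl7a is at the bottom with all 4 points below 0.

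Other parts of the translation apparatus were measured by 19 clones of 17 genes, of which 12 clones were listed as repressed, 3 as activated and 4 came from the total RNA list. Their median was 0.42. All 4 arrays lay above 0 for 7 clones (36.8%), near the 30.6% of the repressed clones. The array medians were 0.19, 0.20 and 0.22 on P9, P11 and P13 and 0.71 on P15, and the list median was 0.24 without P15. Eif4e, the cap-binding subunit of eIF4F, had 3 clones that were not chosen on polysomal arrays. H3130B02 read 0.72, 0.54, 0.34 and 0.24 (mean 0.46, SD 0.21), H3089A10 read 0.40, 0.64, 0.59 and -0.13 (mean 0.37), and H3012A09 read 0.28, -0.20, 0.16 and 0.24 (mean 0.12). The endogenous Eif4e mRNA thus lay at or slightly above the typical clone, with adjusted p of 0.669 or more in limma. Eif4g1, the scaffold subunit of eIF4F, was close to 0 on all arrays, from -0.27 to -0.02. Cpeb2, an RNA-binding regulator of polyadenylation, read 1.06, 0.25, 1.39 and 2.29 (mean 1.25). Eif1, which guards start codon selection, read 0.34, 0.73, 0.50 and 0.28 (mean 0.46), and Gspt1, the release factor eRF3, read 0.19, 0.11, 0.56 and 0.95 (mean 0.45). Pabpc4, a poly(A)-binding protein, and the leucyl-tRNA synthetase gene Lars owed means of 0.89 and 0.90 to 1 array each. Pabpc4 read 2.99 on P13 and 0.19 to 0.20 elsewhere, and Lars read 2.98 on P15 and -0.23 to 0.60 elsewhere. Pabpc4 was not above background in the total RNA channel of either scanned array (0.947 and 0.943 times background on P11 and P15).

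The 27 clones named from total RNA only, which represent 25 genes, had a median of 0.15 and means from -1.07 to 1.49. Of these, 3 lay above 0 on all 4 arrays (11.1%) and 2 lay below (7.41%), near the 7.72% and 7.53% of all clones. H2az1, the histone variant H2A.Z, was the highest of all named clones through clone H3009F03, which read 1.66 on P9, 2.65 on P11, 0.50 on P13 and 1.14 on P15 (mean 1.49, SD 0.91). The adjusted p of limma was 0.283, and 0.073 over clones above background. A second H2az1 clone, H3009D10, taken from the activated list, read 0.56, -0.42, 0.10 and 0.38 (mean 0.16), so the 2 clones of this gene differed by 1.33. Pttg1, or securin, which inhibits separase until anaphase, read 0.74, 0.49, 0.38 and 1.53 (mean 0.79, SD 0.52, adjusted p 0.568). Tubb5, a beta-tubulin, was high on P9, P11 and P15, at 1.54, 1.68 and 1.09, and at -0.38 on P13. Plin1, a lipid droplet protein, was below 0 on all arrays, at -0.35, -0.75, -0.42 and -0.31 (mean -0.46).

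Col1a2, the alpha 2 chain of type I collagen and a defining product of fibroblasts, was the lowest of these 27 clones. It read -1.20, -0.68, -1.56 and -0.84, a mean of -1.07 (SD 0.39), and its adjusted p was 0.358 over all clones and 0.093 over clones above background. All 4 arrays lay below 0. Its total RNA signal was 19.8 times background on P11 and 12.7 times on P15, at the 83rd and 81st percentile of clones. The other fibroblast markers did not share the low ratio. The proteoglycan genes Dcn and Bgn had means of -0.29, with arrays from -1.28 to 0.42, and 0.50, with arrays from -0.22 to 0.88. Serpinf1 had a mean of 0.15. Total RNA signals of Col1a2, Dcn and Bgn were above background on both scanned arrays, and that of Serpinf1 was so on P11 alone. Of 12 clones of markers of endothelial, blood, epithelial and neural cells, 6 were above background as well, namely Pecam1, Cd34, Stab1, Fcgr1, Hbb-y and Tnfrsf9. The others (Calb1, Cldn6, Cldn7, Doc2a, Pclo and Tph2) were not. The share of these markers above background was near that of all clones, 7200 of 15247. The part of the marker mRNAs in the results was not tested, and hybridization to spotted cDNA does not tell related transcripts apart. In RNA of a whole culture, few cells with much of an mRNA and many with little cannot be told apart either. Their marker polysomal ratios had a median of 0.04.

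**Figure D2:**
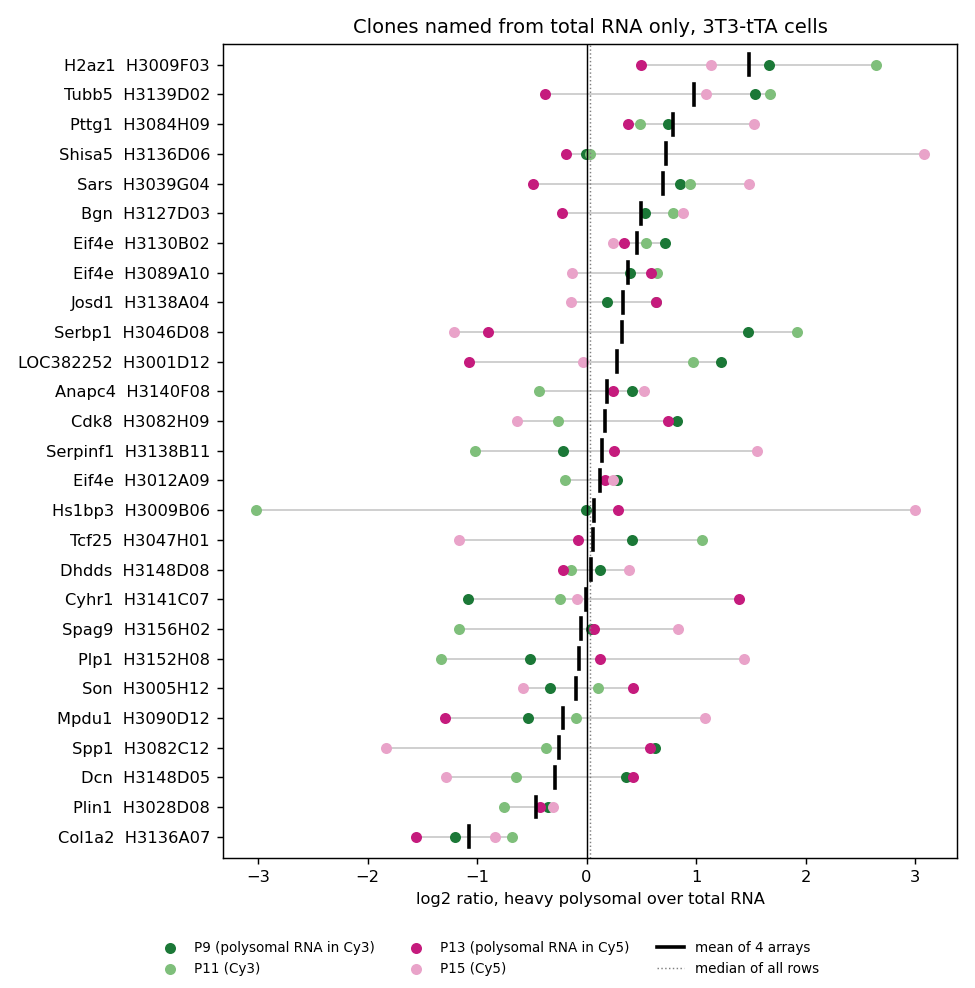
Log2 ratio of heavy polysomal over total RNA (x axis) for the 27 clones named from total RNA only, which were chosen without the polysomal arrays. Points are the 4 arrays, black bars their means and the dotted line the median of all clones (0.03). H2az1 (mean 1.49) and Col1a2 (mean -1.07) are at the ends, each with 4 points on one side of 0, while most clones between them straddle 0.

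The highest and lowest of the named genes with 4 arrays on one side of 0 were picked by these values and are given as a description. After H2az1 the highest were Ankrd28, Cpeb2, Morf4l2, Mif, Rer1, Bub3, Mdh1, Chaf1a and Marchf6, with means from 1.38 to 1.07. All of these but Mif and H2az1 were listed as repressed. Morf4l2, a subunit of chromatin acetylation complexes, was the most even, at 1.18, 0.94, 1.31 and 1.55 (mean 1.24, SD 0.26). Its adjusted p in limma was 0.267, and 0.042 over clones above background. Mif, a secreted cytokine, read 1.23, 1.89, 1.25 and 0.55 (mean 1.23, SD 0.55). It was listed as activated and so was chosen against a high parental ratio. Its adjusted p was 0.358, and 0.097 over clones above background. Bub3, a spindle checkpoint protein, read 0.70, 1.05, 0.78 and 1.95 (mean 1.12). Rer1, a receptor that returns proteins to the endoplasmic reticulum, read 0.42, 0.92, 1.21 and 2.01 (mean 1.14). For Ankrd28 and the ubiquitin ligase gene Marchf6 the Cy5 arrays carried the value. Ankrd28 read 2.23 on P13 and 2.79 on P15 against 0.45 and 0.07 on P9 and P11, and Marchf6 read 1.96 and 2.04 against 0.18 and 0.09. Total RNA was close to background on P15 for 7 of the 10 highest genes (1.05 to 1.36 times background), all but H2az1, Morf4l2 and Mif. The part of this in their ratios was not tested.

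The lowest named gene was Gdap1, a protein of the mitochondrial outer membrane, at -1.71, -2.14, -1.87 and -1.63. Its mean of -1.84 (SD 0.23) was a 0.280-fold ratio and its arrays were close together. The adjusted p in limma was 0.156 over all clones and 0.021 over clones above background. Sltm, a nuclear RNA-binding protein, read -1.49, -1.47, -0.83 and -1.64 (mean -1.35, SD 0.36, adjusted p 0.283). Tmed3, a cargo receptor of the early secretory pathway, was also even, at -1.14, -1.11, -0.72 and -0.63 (mean -0.90). Tmod2, which caps actin filaments, read -2.72 on P11 and -0.42 to -1.21 on the other arrays. Cnot1, the scaffold of the deadenylase complex, read -2.72 on P15 and -0.56 to -0.68 elsewhere. Fam110c, Prkdc, Phf8 and Rbak completed the group with means from -0.95 to -0.91. For Sltm, Cnot1, Prkdc and Phf8 the total RNA foreground on P11 was below its background (0.107 to 0.487 times). When ratios of P11 and P15 were rebuilt from scanner values with background correction, the means of Cnot1 and Prkdc became 0.20 and 0.20. Except for Col1a2, all 10 were listed as activated, which favours low parental values.

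**Figure D3:**
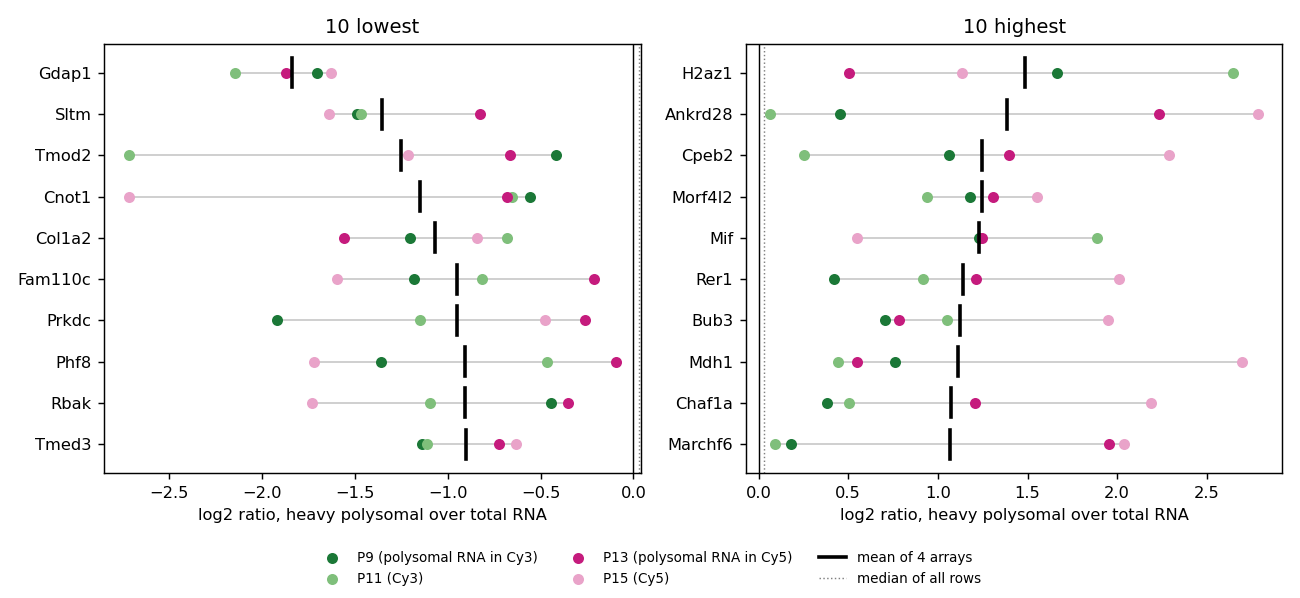
Log2 ratio of heavy polysomal over total RNA (x axes) for the 10 lowest (left) and 10 highest (right) named genes among those with all 4 arrays on one side of 0 in 3T3-tTA cells. Points are arrays and black bars are means of 4. Gdap1, Morf4l2 and Tmed3 have the closest points, and single arrays lie far out for Tmod2, Cnot1 and Mdh1.

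The 9 clones of glycolysis and sterol synthesis had a median of 0.64 (SD 0.41 over arrays). It was the highest of the lists with all 4 arrays but not without P11 and P15 (0.46, against 0.62 for iron and redox). The array medians were 0.76 on P9, 0.59 on P11, 0.10 on P13 and 1.08 on P15. Those of the small ribosomal subunit were higher on P11 (0.74) and P13 (0.28). On all arrays 5 clones lay above 0 (55.6%) and 0 below. Of the 9 clones 8 were listed as repressed, of which 30.6% lay above 0 on all arrays. Mdh1, the cytosolic malate dehydrogenase, is an enzyme of neither pathway but gave 3 of the 9 clones. H3059E05 read 0.93, 1.31, 0.50 and 1.01 (mean 0.94, SD 0.33, adjusted p 0.358, and 0.092 over clones above background). H3025C05 read 0.94, 0.79, 0.69 and -0.11 (mean 0.58), and H3052A04 read 0.76, 0.44, 0.55 and 2.70 (mean 1.11). The 3 clones were all above 0 on P9, P11 and P13, and their means differed by up to 0.54. Pkm, the pyruvate kinase of muscle and proliferating cells, read 1.12, 1.04, 0.10 and 1.25 (mean 0.88). The lactate dehydrogenase gene Ldhb read 0.82, 0.89, 0.10 and 2.20 (mean 1.00). Dhcr7, which makes the last step of cholesterol synthesis, was the exception with a mean of -0.82 and was the single member listed as activated.

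Ftl1, the light chain of the iron store ferritin, had 3 clones whose values followed the dye. They read 1.52, 1.29 and 1.35 on P9 and 0.76, 1.26 and 0.95 on P11, but 0.04, 0.08 and -0.04 on P13 and 0.47, -0.05 and 0.36 on P15. The means of 0.70, 0.65 and 0.66 differed by at most 0.05. The transferrin receptor gene Tfrc, which takes up iron, was below 0 on all arrays, at -0.74, -0.14, -0.58 and -0.36 (mean -0.46). Ferritin clones were listed as repressed and Tfrc as activated. Across the iron and redox list of 9 clones the median was 0.04, and 0.34 without P15, 0.23 without P11 and 0.067 without P13.

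Of the mitochondrial proteins, the 8 clones of the respiratory chain, all listed as activated, had means from -0.35 (Ndufaf1) to 0.41 (Cox8a) and a median of -0.08. On all arrays 0 of them lay on one side of 0, where 8.64% of all activated clones lay above and 21.3% below. The array medians of this list were 0.29 on P9 and 0.29 on P13 but -0.21 on P11 and -0.19 on P15. The list median was 0.042 without P11, -0.043 without P13 and 0.066 without P15. The 11 clones of mitochondrial import and matrix proteins, of which 6 were listed as repressed and 5 as activated, had a median of 0.25. On all arrays 3 of these lay above 0 (27.3%) and 1 lay below (9.09%). These shares were 7.72% and 7.53% for all clones and 30.6% and 2.45% for the repressed ones. The list median was 0.12 without P13 and 0.098 without P15. Timm23, the channel of the inner membrane translocase, read 0.70, 1.22, 0.48 and 0.56 (mean 0.74, SD 0.33), although it was listed as activated. Tfam, which packages mitochondrial DNA, was below 0 on all arrays (mean -0.64). The outer membrane receptor gene Tomm20 had 3 clones with means of 0.45, 0.24 and 0.04. Mrpl13 and Mrpl18 of the mitochondrial ribosome had means of 0.27 and -0.34, and Mrpl18 ranged from -2.10 on P11 to 0.56 on P13.

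Among 19 cell cycle and chromatin clones, 9 lay above 0 on all arrays (47.4%) and 1 lay below (5.26%), and the median was 0.17. Of all clones 7.72% lay above and 7.53% below. Of the 19 clones 9 were listed as activated and 7 as repressed. The shares above and below were 8.64% and 21.3% for all activated clones and 30.6% and 2.45% for all repressed ones. The list median was 0.43 without P11, 0.26 without P13 and 0.37 without P15. Only 6 of the 19 were above background, against 7200 of all 15247 clones. Chaf1a and Chaf1b, subunits of the histone chaperone CAF-1, had similar profiles. Chaf1a read 0.38, 0.50, 1.21 and 2.19 (mean 1.07) and Chaf1b read 0.22, 0.27, 1.38 and 2.35 (mean 1.05). Both were higher on the Cy5 than on the Cy3 arrays, and their total RNA was 1.31 and 1.34 times background on P15. The condensin gene Smc2 read 0.50, 0.99, 0.40 and 1.26 (mean 0.79). At the other end Rpa1, the single-strand DNA-binding protein of replication, was below 0 on all arrays (mean -0.67). The mitotic kinase gene Aurkb ranged from 0.63 on P9 to -1.71 on P15 and its mean of -0.28 was within that spread.

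The 19 clones of adhesion and cytoskeleton, of which 13 were listed as repressed and 5 as activated, had a median of 0.23, with array medians from -0.14 on P13 to 0.82 on P15. The list median was 0.035 without P15 and 0.38 without P11. Ctnnb1, or beta-catenin, read 0.70, 0.76, 0.50 and 1.37 (mean 0.83, SD 0.37). Myo10, an unconventional myosin of filopodia, was the most even, at 0.40, 0.54, 0.35 and 0.52 (mean 0.45, SD 0.09), but its mean was -0.050 with background-corrected scanner values. Itga5, the fibronectin receptor subunit, was below 0 on all arrays (mean -0.64). The ubiquitin and proteasome list of 18 clones, 13 of them listed as repressed and 5 as activated, had a median of 0.33, against 0.45 for all repressed clones, with array medians of -0.02 to 0.15 on P9, P11 and P13 and 0.76 on P15. The median of the list was 0.11 without P15 and 0.50 without P11. The cullin gene Cul5 read 2.73 on P15 and -0.42 to -0.06 elsewhere, and its mean of 0.53 became -0.23 in the fit without P15. Its total RNA was at background on P15 (1.09 times). All 10 clones of transcription factors had a mean above 0, as did 218 of the 245 repressed clones, to which 7 of the 10 belonged, and 8331 of all 15247 clones. The median of the transcription factors was 0.29 (0.48 without P11). Of them 3 (30%) lay above 0 on all arrays, against 30.6% of the repressed and 7.72% of all clones. The immediate early gene Egr1 ranged from 2.02 on P9 to -0.37 on P15, and Jun read 0.94 and 1.68 on P9 and P13 and -0.57 and -0.65 on P11 and P15. The 16 clones of secreted and extracellular matrix proteins, of which 6 were listed as activated and 5 as repressed, had a median of -0.02, between -0.18 and -0.05 without single arrays, and the widest range of means, from -1.28 (Wnt6) to 1.23 (Mif).

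**Figure D4:**
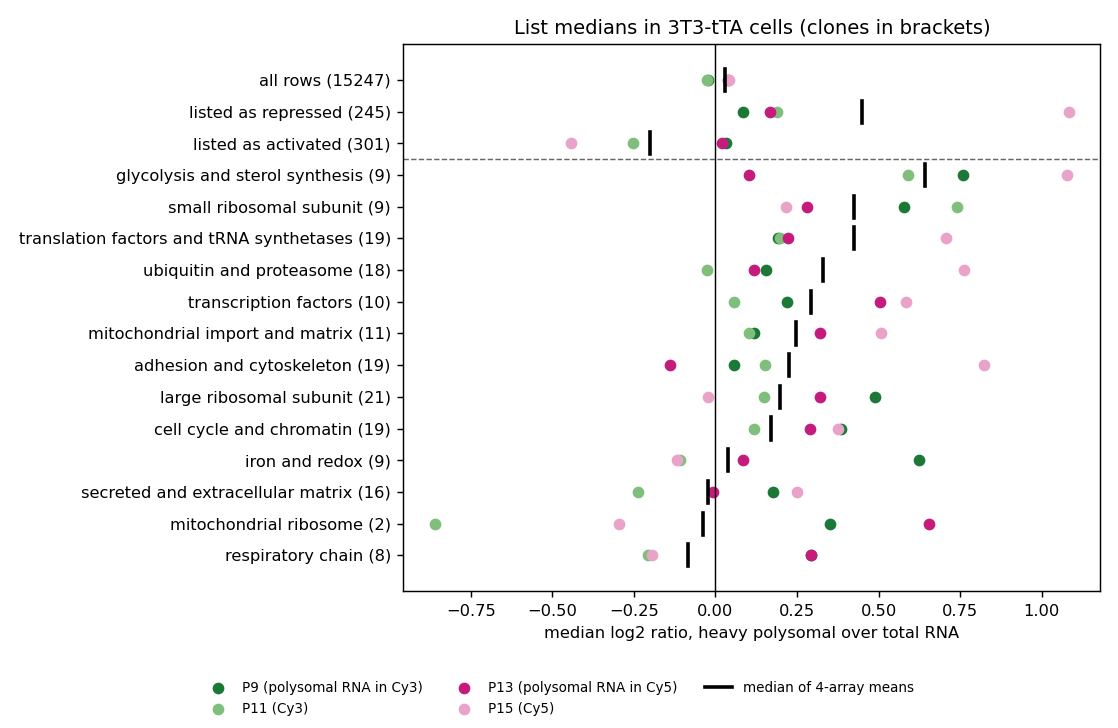
Median log2 ratio of heavy polysomal over total RNA (x axis) of 13 gene lists, and of the activated, repressed and all clones above the dashed line, with the number of clones in brackets. Points are the medians on each of the 4 arrays and black bars the medians of the clones' 4-array means. Glycolysis and sterol synthesis (0.64) lies highest, followed by the small ribosomal subunit and the translation factors (both 0.42), the respiratory chain (-0.08) lies lowest of the gene lists, and P15 stands off to the right for the repressed clones (1.08).

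Separate clones of 1 gene gave a check of the values. Of 19 genes with 2 or 3 named clones, 13 had means of the same sign, and the median difference between the highest and the lowest clone was 0.41. It was at most 0.3 for 5 genes, among them Ftl1, Rps24 and Rpl23. The largest difference, 1.33, was that of H2az1, followed by Cdc14b at 1.08 and Rpl38 at 0.84. Many differences between the genes named here were smaller than these.

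The same ratio in 3T3-tTA-eIF4E cells, induced for 5 h, is given beside the parental values. The reference of those arrays is uninduced total RNA in the labels and induced total RNA in the methods. Across 15247 clones the 4-array means of the lines correlated at 0.63, and across the 7200 clones above background at 0.79. The clones share arrays and dyes. Of the 42 clones called higher above background 41 were above 0 in the other line as well, and of the 89 called lower 88 were below 0 there. The called clones lie far from 0, where the sign is shared more often in any case: it was shared by 88.7% and 86.8% of the clones with all 4 parental arrays above or below 0. Their medians were 1.00 and -1.50 in the parental line and 1.06 and -1.63 in the other. Col1a2 had means of -1.07 and -1.02 in the parental and the other line, H2az1 clone H3009F03 of 1.49 and 1.53, and Pttg1 of 0.79 and 0.95. Gdap1 had -1.84 and -1.12. Many of the other high and low genes were close to 0 in the other line. Ankrd28 had means of 1.38 and 0.14, Cpeb2 of 1.25 and -0.02, Chaf1a of 1.07 and 0.10 and Marchf6 of 1.07 and 0.05. Tmod2 (-1.25 and 0.16), Phf8 (-0.91 and 0.30) and Tmed3 (-0.90 and 0.48) had opposite signs. Of the called clones Morf4l2 had 1.24 and 0.53 and Mdh1 clone H3059E05 had 0.94 and 0.16, whereas Mif had 1.23 and 1.95 and Rpl38 clone H3122F02 had 0.87 and 1.40. Gdap1 and the genes from Ankrd28 on were listed because the lines differed. The ribosomal protein clones had medians of 0.34 in the parental line and 0.95 in the other, a difference on which they were chosen.

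**Figure D5:**
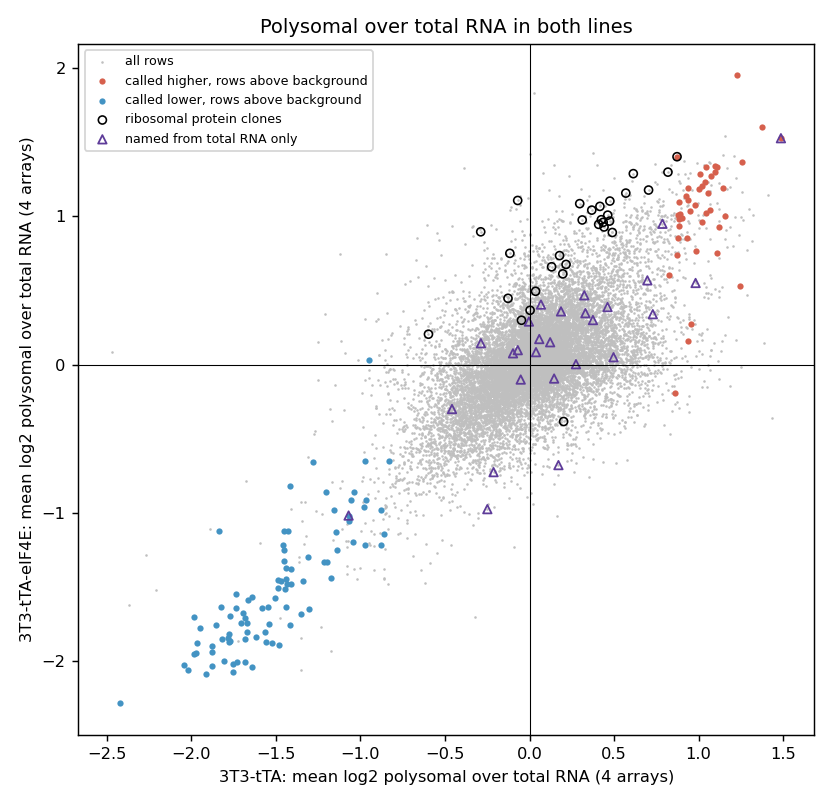
Mean log2 ratio of heavy polysomal over total RNA of 4 arrays in 3T3-tTA (x axis) and in 3T3-tTA-eIF4E cells (y axis). Grey points are 15247 clones, red and blue points the 42 and 89 called higher and lower in 3T3-tTA among clones above background, circles the 30 ribosomal protein clones and triangles the 27 clones named from total RNA only. Most called clones lie in the same corner in both lines, and most circles, which were chosen on this difference, have the higher value in 3T3-tTA-eIF4E cells.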

How the data were processed

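Arrays were scanned by the authors with a GenePix scanner, and the deposited log2 values are ratios of single spots that the authors normalized with limma (version not given in the sources used here) by a lowess over each array without background subtraction. Scale and direction, Cy3 over Cy5, were read from the deposited scanner intensity values of P11 and P15, which the authors had not normalized; their log2 ratios correlated with the deposited values at 0.941 or more. For P9 and P13 the same direction was assumed. Values were multiplied by -1 where polysomal RNA carried Cy5 and duplicate spots were averaged.

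Limma 3.58.1 in R 4.3.3 was fitted to the means of 2 extractions per line, each 1 Cy3 and 1 Cy5 array, over the polysomal arrays of both lines, and the parental coefficient was tested against 0. Since the shared extractions are unknown, all 4 possible assignments were tried, and each clone carries its largest p. The Benjamini-Hochberg method was applied across 15247 clones. When 1 array was left out, a dye term per clone, fitted over the polysomal arrays of both lines, was removed first. The value given is then the mean of 2 extraction means, with P9 paired with P13 and P11 with P15. The partner of the left-out array therefore weighs as much as the other 2 arrays together. When a possible extraction was left out, the value is the plain mean of the remaining arrays. An SD is over 4 arrays, which stand for 2 extractions. The test was run on simulated data, where it called 1 unchanged clone of 15047.

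Rows were named by the numerators of the study's supplementary tables, to 6 significant digits. A row was found for 29 of 30 entries on total RNA and for 546 of 554 entries on polysomal RNA. The printed place was derived for 561 named clones and matched in 561. A current RefSeq symbol was found by accession for 427 clones, and 76 older symbols were updated through a synonym. For 4 clones whose accession belongs to another gene (Rps26, Pax6 and Zfp72) the study's symbol was kept, and Pax6 was left out of the transcription factors. Nr2f2 had no row. Named genes were the members of 13 gene lists, genes with several clones, and the 10 highest and 10 lowest; Plin1 and the marker genes were added after their values were seen. The members and lists were chosen with earlier results of these data known. Alternatives were other replicate units, fits, normalizations, duplicate spots, filters, thresholds and left-out arrays. A comparison with protein length was not run, since no protein sequences were used here. Values of 1 gene are not reported here.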

Additional observations from a re-analysis of the deposited data

Results flagged for a closer look

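In 65 sets of 4 arrays (50 clones and 15 gene lists), the array farthest from the others was compared with the range of all 4, a check that chance meets in about 1 of 20 sets. Over all 15247 clones 6.31% met it, and the array apart was P15 for 3.51%, P13 for 1.31%, P11 for 1.04% and P9 for 0.453%. P15 read 2.70 for Mdh1 clone H3052A04 (next 0.76), -2.72 for Cnot1 (next -0.68) and 2.73 for Cul5 (next -0.06). P13 read 2.99 for Pabpc4 (next 0.20) and 0.59 for Rpl38 clone H3122F02 (next 0.93). Among the lists, the median of the translation factors was 0.71 on P15 (next 0.22) and that of the 4 fibroblast markers was -0.66 on P11 (next 0.01).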

How the results depend on the processing

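Clones called higher and lower were 0 and 0 over all clones, and remained 0 and 0 with 4 arrays as replicates and a dye term, the parental line alone, centring, scaling, scanner values with normexp, single duplicate spots, either threshold and the Cy5 arrays alone. The stricter thresholds could give nothing but 0 once the main setting had. With the parental line alone, which rests on its own extractions, the smallest adjusted p of limma was 0.471. The counts were 976 and 1012 with 8 spots as replicates, 116 and 137 with all 4 conditions in the fit, 42 and 89 for clones above background and 466 and 244 for the Cy3 arrays alone. Leaving out single arrays or possible extractions gave 0 to 0 higher and 0 to 26 lower clones, with 26 without P13 and 25 without P15. Clones with all arrays above or below 0 were 709 and 664 among clones above background, of which fewer were tested. With only 3 arrays, a setting added after seeing the data, the counts were 1773 to 2330 and 1600 to 2199.

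Of the list medians, that of the respiratory chain moved from -0.08 to 0.22 for clones above background and ranged from -0.20 to 0.29 over left-out arrays and extractions. That of mitochondrial import was 0.036 on the Cy3 and 0.46 on the Cy5 arrays, and that of the translation factors 0.15 and 0.50. In the same order these medians were 0.055 and 0.48 for ubiquitin and proteasome, 0.048 and 0.34 for adhesion and cytoskeleton, 0.20 and 0.50 for the transcription factors, 0.38 and 0.13 for the large and 0.59 and 0.24 for the small ribosomal subunit, 0.11 and -0.034 for iron and redox, 0.014 and -0.061 for the respiratory chain, and -0.12 and -0.0078 for secreted proteins. That of cell cycle and chromatin was 0.31 with scaled arrays, 0.014 above background, 0.33 with clones of a gene averaged and 0.10 to 0.43 over left-out arrays and extractions. The iron and redox list ranged from 0.056 to 0.34 over single left-out arrays and from -0.13 to 0.62 with pairs of arrays (possible extractions) left out as well. These ranges were 0.58 to 0.95 and 0.46 to 1.15 for glycolysis and sterol synthesis. Over both kinds, adhesion and cytoskeleton ranged from -0.0076 to 0.54, ubiquitin and proteasome from 0.093 to 0.58, the translation factors from 0.18 to 0.50, and the large and small ribosomal subunits from 0.059 to 0.38 and from 0.40 to 0.49. Of 979 values of 50 clones under alternatives 15 changed sign, in 7 clones. With scanner values Cnot1 H3054A08 became 0.20, Prkdc H3077G08 0.20 and Myo10 H3031C11 -0.050. Eif4e H3012A09 was -0.0099 with the second duplicate spots alone, and Cul5 H3052B05 was -0.10 on the Cy3 arrays alone. With left-out arrays or extractions Rpl38 H3141B12 ranged from -0.11 to 0.20, H2az1 H3009D10 from -0.16 to 0.47, Eif4e H3012A09 from -0.016 to 0.26 and Cul5 from -0.28 to 1.33. The cause was not tested. No paired analysis was possible because 1 group was compared with 0. The comparison with protein length was not run.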
